A study of Psychotria gabriellae and Psychotria semperflorens with 6 samples.

Results

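Among 60899 contigs of a leaf transcriptome, 87 ranked 200 or better by read count in every one of 6 libraries from 2 wild Psychotria species, and these most abundant shared contigs are described here. A contig is a sequence assembled de novo from reads, which may be a whole transcript, a fragment, an allele or an isoform. The members were chosen on their counts in all 6 libraries, so their high level is the rule and not a result. Their levels, order and spread are given as descriptions. Species and sites were compared by fits over all contigs, and the members' calls are counted beside the share over all contigs. Nothing is read from those counts about the members. Reads were counted on contigs of unstated length, so the order below is an order of reads and not of transcript molecules.

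The leaves came from 3 plants of Psychotria gabriellae, labelled a nickel hyperaccumulator, and 3 plants of Psychotria semperflorens, labelled a non-accumulator. All 6 plants grew wild in New Caledonian rain forest on serpentine soil, and each library is polyA RNA of 1 plant. P. gabriellae plant 2 and P. semperflorens plant 2 were collected at Rivière Blanche on March 10, and the other 4 plants at Monts Koghi in October and November of the year before. P. gabriellae plant 1 and P. semperflorens plant 3 were taken there on October 30, and P. gabriellae plant 3 and P. semperflorens plant 1 on November 4. Both species were counted on the P. gabriellae transcriptome, which can lower P. semperflorens counts where the sequences differ, and site cannot be told apart from season.

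A nickel hyperaccumulator concentrates in its leaves a metal that is toxic to most plants, by uptake in the root, transport in the xylem and storage mainly in leaf vacuoles. Independently of metals, a leaf cell devotes a large part of its polyA RNA to few genes, typically those of the small subunit of Rubisco and of the light-harvesting proteins of the photosystems. Such transcripts respond to light, season and leaf age. The files pair no contig with a gene name or a sequence, so no member can be given a function, and neither the leaf identity nor any pathway could be checked by marker genes. Alleles, isoforms or copies of 1 gene may occupy several of the 87 contigs and share reads between them.

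Library totals ranged from 29905486 to 62064930 reads. Even the scarcest value among the members, for Pgab_v2_contig_1315 in P. gabriellae plant 3, rested on 13873 reads, for which counting error alone is 0.849%. Levels are given as CPM, the count divided by the library's total and multiplied by 1e+06, unless the TMM scale of edgeR is named. TMM factors, which equalise the bulk of contigs between libraries, moved the log2 level by -0.24 in P. gabriellae plant 3 and by 0.15 for P. semperflorens plant 2, with the other 4 libraries between.

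The 87 members are 0.143% of all contigs and held between 13.5% and 18.3% of the reads. In P. gabriellae plants 1, 2 and 3 they took 15.4%, 16.3% and 15.2% of the reads, against 16.5%, 18.3% and 13.5% in P. semperflorens plants 1, 2 and 3. The exact binomial 95% intervals, which cover counting error only, reached at most from 15.18% to 15.20% in the smallest library. The mean was 15.6% ± 0.566 for the P. gabriellae plants and 16.1% ± 2.44 for those of P. semperflorens (SD, n = 3 each). The range of P. gabriellae lay inside that of P. semperflorens, which held both the highest and the lowest share of all. At Rivière Blanche the share was 16.3% and 18.3%, against 13.5% to 16.5% in the 4 Monts Koghi plants. The Rivière Blanche plant had the highest share within each species, but the site ranges overlapped.

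**Figure D1:**
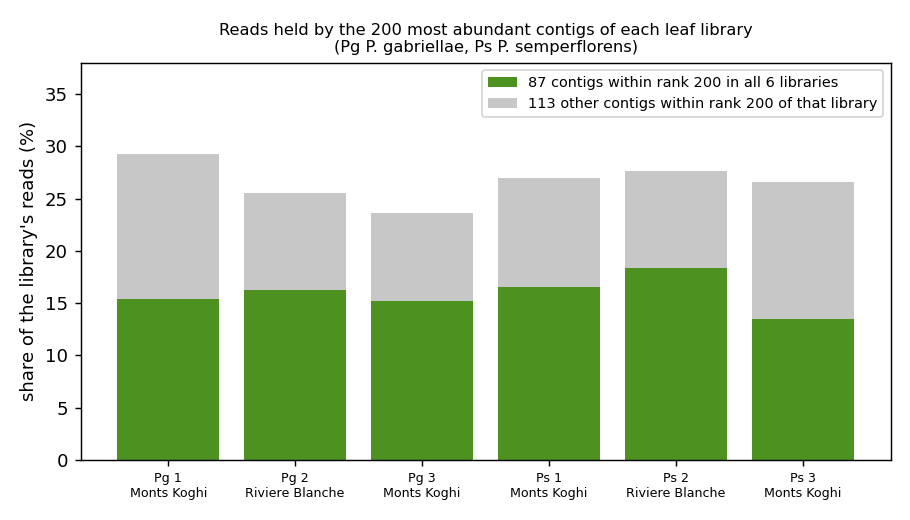
Share of each library's reads (vertical axis, percent) held by the 87 shared contigs (green) and by the 113 other contigs among the 200 most abundant of that library (grey), for P. gabriellae plants (left) and P. semperflorens plants (right) with their sites. The green part lies between 13.5% and 18.3%, and the grey part is largest in P. gabriellae plant 1 (13.9%) and P. semperflorens plant 3 (13.1%).

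The 200 most abundant contigs of a library together held 23.6% to 29.3% of its reads, and the 113 of them that were not shared by all plants held 8.41% to 13.9%. These other contigs took most in the 2 plants collected on October 30, with 13.9% for P. gabriellae plant 1 and 13.1% for P. semperflorens plant 3, and 8.41% to 10.5% elsewhere. Accordingly the members made up 52.6% of the reads of the 200 highest contigs for P. gabriellae plant 1 and 50.8% for P. semperflorens plant 3, where the remaining plants had 61.1% to 66.4%. The most abundant contig of all was a member in 4 libraries, and in those 2 it was not. It was Pgab_v2_contig_108 in P. gabriellae plant 1, with 2.24% of the reads, and Pgab_v2_contig_53591 in P. semperflorens plant 3, with 2.35%. In P. gabriellae plants 2 and 3 and in P. semperflorens plant 2 all 10 of the highest contigs were members, while P. gabriellae plant 1 had 6, P. semperflorens plant 1 had 7 and P. semperflorens plant 3 had 5.

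In all, 362 contigs ranked 200 or better in at least 1 library. Of these, 103 did so in 1 library only, 59 in 2, 35 in 3, 38 in 4, 40 in 5 and 87 in all 6. The 3 P. gabriellae plants shared 101 contigs within this limit and the 3 P. semperflorens plants shared 144. Contigs within the limit in all plants of 1 species and in no plant of the other numbered 4 for P. gabriellae and 6 for P. semperflorens. Of the 40 contigs that missed the rule in 1 library, 19 missed it in P. gabriellae plant 1, 10 in P. gabriellae plant 2 and 3 in P. gabriellae plant 3. The corresponding numbers were 1, 5 and 2 for P. semperflorens plants 1, 2 and 3.

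The pair of these near members with the worst ranks, named after their values were seen, stood far down in P. gabriellae plant 2. Pgab_v2_contig_108 was at 22351, 29.8 and 2524 CPM in P. gabriellae plants 1, 2 and 3, against 3626, 1621 and 5487 CPM in P. semperflorens plants 1, 2 and 3. It ranked between 1 and 39 in 5 plants and 6512 in P. gabriellae plant 2. Pgab_v2_contig_73 was at 8574, 9.64 and 2150.4 CPM in P. gabriellae plants 1, 2 and 3, against 5665, 1291 and 4729 CPM in P. semperflorens plants 1, 2 and 3, and ranked 13543 in P. gabriellae plant 2. Both contigs were lowest in P. gabriellae plant 2 by a wide margin, and both were highest in P. gabriellae plant 1. Among the P. semperflorens plants both were lowest in plant 2, which also came from Rivière Blanche. Other near members were far down elsewhere, as Pgab_v2_contig_9990 and Pgab_v2_contig_4768 ranked 3392 and 2009 in P. gabriellae plant 1. Without P. gabriellae plant 2 in the rule, the 10 contigs it kept out join the members and the average share is 17.5% in place of 15.9%.

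At the limit itself, a count of rank 200 corresponded to 439 to 514 CPM, depending on the library. Just inside it, Pgab_v2_contig_2662 ranked 199 and Pgab_v2_contig_3222 ranked 192 in P. gabriellae plant 1, their worst ranks. Pgab_v2_contig_978 tied with the latter, with a worst rank of 192 in P. semperflorens plant 1. Just outside, Pgab_v2_contig_4402 ranked 201 in P. semperflorens plant 2 and Pgab_v2_contig_567 ranked 204 in P. gabriellae plant 3. In all, 11 of the 87 had a worst rank above 180, and 9 contigs outside the set had a worst rank of 220 or better.

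Reads were concentrated in few of the members. Averaged over the 6 plants, 3 members reached at least 10000 CPM, 14 lay between 2000 and 10000 CPM, 39 between 1000 and 2000 CPM and 31 below 1000 CPM, with a median of 1154 CPM. The number of members that together held 50% of the members' reads was 11, 14 and 12 in P. gabriellae plants 1, 2 and 3, against 19, 17 and 17 in P. semperflorens plants 1, 2 and 3. These numbers did not overlap between the species, and neither did the share of the members' reads in the 10 highest of them, at 44.3% to 49.7% for P. gabriellae plants and 37.0% to 39.7% for P. semperflorens plants. Over whole libraries the species overlapped. There the 10 highest contigs, members or not, held 7.21% to 10.7% of all reads in P. gabriellae plants and 6.55% to 9.12% in P. semperflorens plants. The 4 members with the highest average took 4.18% to 4.76% of all reads of P. gabriellae plants and 3.31% to 4.38% of those of P. semperflorens plants. The other 83 took 10.4% to 11.6% of P. gabriellae reads and 10.2% to 13.9% of P. semperflorens reads.

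**Figure D2:**
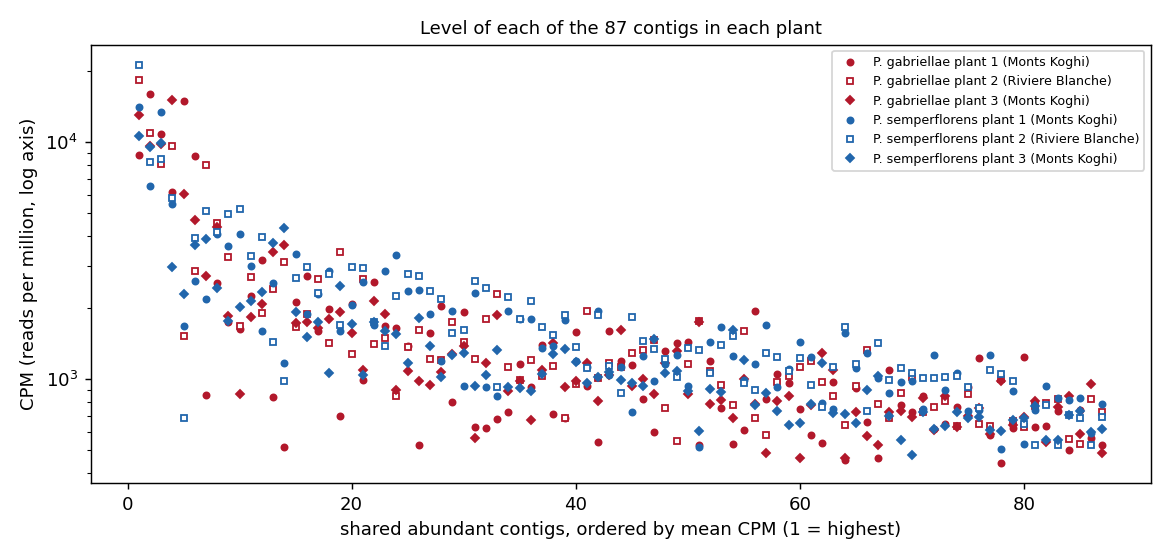
CPM of each of the 87 contigs (vertical log axis) in each of the 6 plants, with the contigs ordered from left to right by their mean over the plants. Red is P. gabriellae, blue is P. semperflorens and open squares are Rivière Blanche plants. The first 3 contigs average at least 10000 CPM, while 31 average under 1000 CPM.

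Pgab_v2_contig_423 had the highest average, at 14347 CPM. It was at 8870.3, 18245 and 13032 CPM in P. gabriellae plants 1, 2 and 3, against 14039, 21260.1 and 10636 CPM in P. semperflorens plants 1, 2 and 3. It led the libraries of P. gabriellae plant 2 and of P. semperflorens plants 1 and 2, and never ranked below 5. The species overlapped, with 13383 ± 4697 CPM for P. gabriellae and 15312 ± 5425 CPM for P. semperflorens (SD, n = 3 each), whereas both Rivière Blanche plants lay above all 4 Monts Koghi plants.

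Pgab_v2_contig_144 was at 15996, 10889.8 and 9655 CPM in P. gabriellae plants 1, 2 and 3, against 6523, 8259 and 9566 CPM in P. semperflorens plants 1, 2 and 3. It ranked between 2 and 5 in every library. Pgab_v2_contig_178 was the steadiest of the leading members, at 10810.4, 8064 and 9799.6 CPM in P. gabriellae plants 1, 2 and 3, against 13462, 8519 and 9907 CPM in P. semperflorens plants 1, 2 and 3. Its highest value was 1.67 times its lowest, and it ranked between 2 and 4 in every library.

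Those 3 contigs were the members that stood among the first 5 of the members in all 6 plants, out of 9 that did so in any plant. The next in average, Pgab_v2_contig_482, was at 6141, 9609.55 and 15091 CPM in P. gabriellae plants 1, 2 and 3, against 5479.6, 5810.4 and 2973 CPM in P. semperflorens plants 1, 2 and 3. It was the first contig of the library in P. gabriellae plant 3 and ranked 13 in P. semperflorens plant 3. Pgab_v2_contig_311 was at 8754, 2849.7 and 4672 CPM in P. gabriellae plants 1, 2 and 3, against 2604, 3946 and 3673 CPM in P. semperflorens plants 1, 2 and 3. Its value in P. gabriellae plant 1 stood above the rest, which lay between 2604 and 4672 CPM.

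The order of the members below these first few differed between plants. Of the members among the first 10, 5 were so in all 6 plants and 19 in at least 1 plant. For the first 20 these numbers were 8 and 34, and for the first 40 they were 16 and 66. Spearman's rho of the read counts over the 87 members, which are not independent replicates and share each library's depth, ranged from 0.41 to 0.79 over the 15 pairs of plants, with a median of 0.57. Pairs within P. gabriellae had 0.41 to 0.77, those within P. semperflorens 0.67 to 0.79 and pairs across the species 0.45 to 0.77.

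P. gabriellae plant 1 was the plant whose order was least like the others, with rho of 0.41 to 0.55 in its 5 pairs. Its lowest value was with P. gabriellae plant 2, of its own species, with which it shared 10 of the first 20 members. P. gabriellae plant 3 and P. semperflorens plant 3, of different species, reached 0.77, with 15 of the first 20 in common and a median difference of 1.17-fold between their levels of a member. P. semperflorens plants 1 and 2 reached 0.79 and shared 16. Plants of the 2 species taken on the same day had rho of 0.45 to 0.64, and those taken on different days 0.49 to 0.77.

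**Figure D3:**
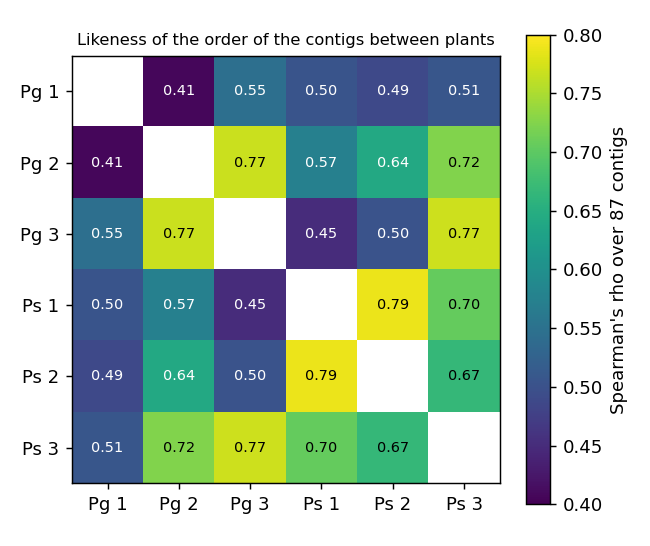
Spearman's rho of the read counts of the 87 contigs for each pair of plants, with P. gabriellae (Pg) before P. semperflorens (Ps) on both axes. Values run from 0.41 between P. gabriellae plants 1 and 2 to 0.79 between P. semperflorens plants 1 and 2.

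The level of a member varied by a median of 2.20-fold between its lowest and its highest plant. For the 39387 contigs holding 10 or more reads in every library the median was 3.03-fold. The rule keeps a member above rank 200 in every plant, which by itself limits this range, so the difference is not a result. The range stayed under 2-fold in 33 of the 87 members, lay between 2-fold and 4-fold in 45 and was over 4-fold in 9. On the TMM scale the median range was 1.32 on the log2 scale in place of 1.14, and 22 members stayed under 2-fold. The median SD of log2 CPM within a species was 0.39 for P. gabriellae and 0.36 for P. semperflorens, and 43 of the 87 members had the larger SD in P. gabriellae. Without P. gabriellae plant 1 the first value was 0.24, and without P. semperflorens plant 3 the second was 0.20. Without P. gabriellae plant 2 that of P. gabriellae was 0.29, and leaving out the most distant of 3 plants always lowers an SD.

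Among the 4 members with the largest range, Pgab_v2_contig_40 was at 14931, 1516 and 6031 CPM in P. gabriellae plants 1, 2 and 3, against 1682, 684 and 2288 CPM in P. semperflorens plants 1, 2 and 3. The highest value was 21.8 times the lowest, and its rank ran from 3 in P. gabriellae plant 1 to 139 in P. semperflorens plant 2. It was lowest at Rivière Blanche in each species. Pgab_v2_contig_1604 was at 859, 8047 and 2732 CPM in P. gabriellae plants 1, 2 and 3, against 2179.8, 5109 and 3919 CPM in P. semperflorens plants 1, 2 and 3. This contig ran the other way, with its highest value in each species at Rivière Blanche, and a 9.36-fold range.

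Pgab_v2_contig_2454 was at 517, 3108 and 3692 CPM in P. gabriellae plants 1, 2 and 3, against 1172, 981 and 4324 CPM in P. semperflorens plants 1, 2 and 3. Its 3 high plants and 3 low plants followed neither the species nor the site, and it ranked 8 or 9 in the high plants. Pgab_v2_contig_246 was at 1623, 1682 and 864 CPM in P. gabriellae plants 1, 2 and 3, against 4106, 5231 and 2017 CPM in P. semperflorens plants 1, 2 and 3. Here the species did not overlap. Of the 9 members with a range over 4-fold, 5 were lowest in P. gabriellae plant 1 and 3 were highest in P. semperflorens plant 2.

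At the steady end, Pgab_v2_contig_223 was at 921, 869 and 701 CPM in P. gabriellae plants 1, 2 and 3, against 734, 929 and 685 CPM in P. semperflorens plants 1, 2 and 3, a 1.36-fold range. Pgab_v2_contig_1194 was at 852, 728 and 833 CPM in P. gabriellae plants 1, 2 and 3, against 747, 1013 and 723 CPM in P. semperflorens plants 1, 2 and 3. Pgab_v2_contig_2183 was at 627, 773 and 806 CPM in P. gabriellae plants 1, 2 and 3, against 742, 528 and 772 CPM in P. semperflorens plants 1, 2 and 3. In Pgab_v2_contig_105 a single plant set the range, since P. gabriellae plant 1 stood at 1598 CPM and the other 5 plants between 1038 and 1164 CPM.

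**Figure D4:**
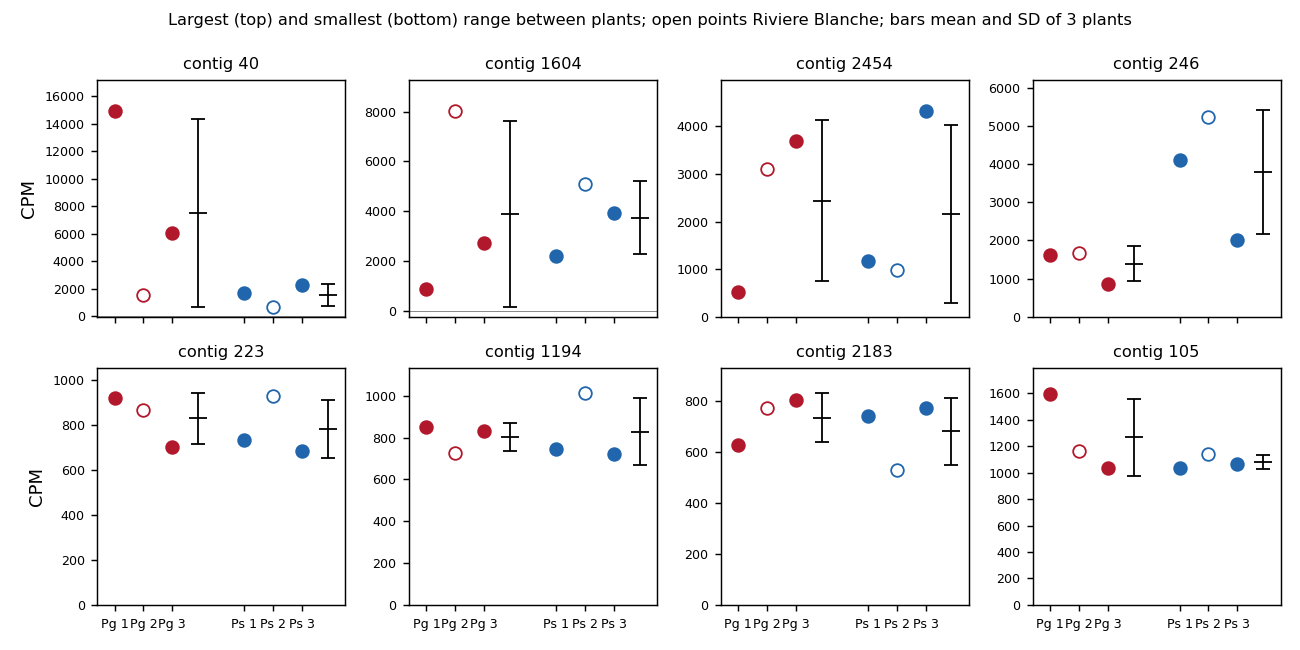
CPM by plant (vertical axes, with a scale for each contig) for the 4 members with the largest range between plants (top) and the 4 with the smallest (bottom), with P. gabriellae in red on the left, P. semperflorens in blue on the right and Rivière Blanche plants as open points. Bars beside each group give the mean and SD of 3 plants. The top row spans up to 21.8-fold and the first contig of the bottom row 1.36-fold.

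Certain members kept a nearly fixed ratio to each other. Over the 3741 pairs of members, the SD of the log2 ratio over the 6 plants had a median of 0.60. The smallest, 0.087, was between Pgab_v2_contig_2529 and Pgab_v2_contig_2732, whose ratio stayed between 0.700 and 0.816. The next, 0.093, was between Pgab_v2_contig_1042 and the same Pgab_v2_contig_2732, with a ratio between 0.671 and 0.786. Pgab_v2_contig_2732 itself was at 755, 942 and 815 CPM in P. gabriellae plants 1, 2 and 3, against 1659, 1392 and 882 CPM in P. semperflorens plants 1, 2 and 3. These 3 contigs were thus all highest in P. semperflorens plants 1 and 2. The files do not tell whether they are pieces or copies of 1 gene.

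Several members shared that pattern. P. semperflorens plants 1 and 2 were the 2 highest plants in 27 of the 87 members, 31.0%, and in 5.31% of those 39387 contigs. On the TMM scale the counts were 37 members, 42.5%, and 9.71% of those contigs. P. semperflorens plant 2 alone was the highest plant in 34 members, 39.1%, and P. semperflorens plant 1 in 20, 23.0%. For P. gabriellae plants 1, 2 and 3 the counts were 14, 9 and 6, and for P. semperflorens plant 3 the count was 4. Over the 39387 contigs P. semperflorens plants 1, 2 and 3 were highest in 11.6%, 10.5% and 18.1%. P. gabriellae plants 1, 2 and 3 were highest in 13.8%, 17.4% and 28.6% of them. P. gabriellae plant 1 was the lowest plant most often, in 29 members, 33.3%, against 24.9% of those contigs. On the TMM scale it was lowest in 20 members, 23.0%, near the 22.3% of those contigs. As a share of the members' own reads it was lowest in 31 members, 35.6%, against 21.2%. The rule had kept out 19 contigs for their rank in P. gabriellae plant 1 alone, which bounds these counts. When each library was scaled to the members' own reads, P. semperflorens plant 2 was highest in 16 members in place of 34, so this count also moves with the scaling. Those 16 are 18.4% of the members, against 4.87% of those contigs.

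**Figure D5:**
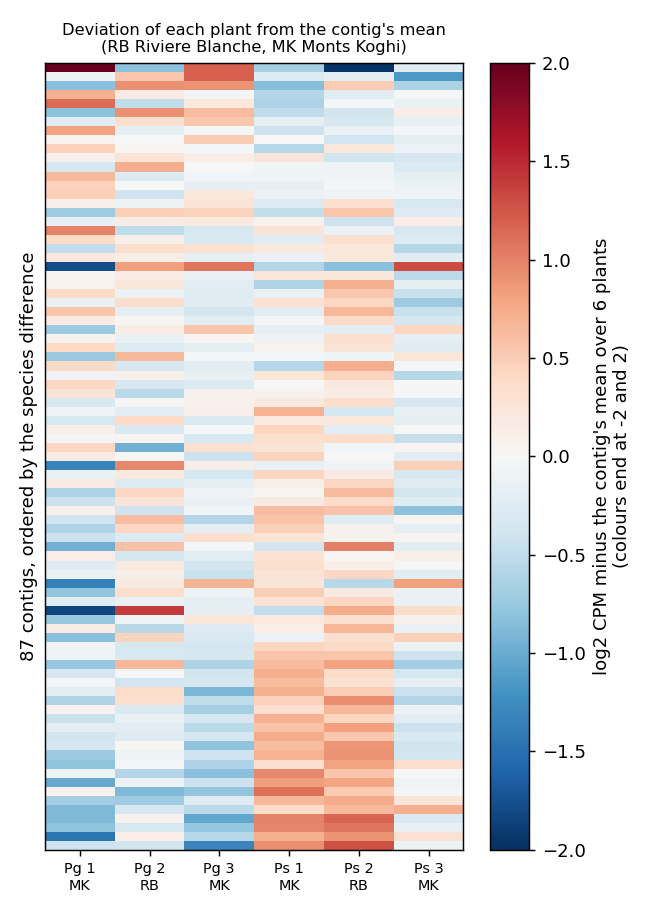
Log2 CPM of each of the 87 contigs (rows) in each plant (columns, P. gabriellae left and P. semperflorens right) minus the contig's mean over the 6 plants, with rows ordered by the difference between the species. Red is above the contig's mean and blue below. P. semperflorens plants 1 and 2 are red together in many of the lower rows, in 27 of 87 as the 2 highest plants.

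The comparison of P. gabriellae with P. semperflorens asks which transcripts differ between leaves of a nickel hyperaccumulator and of a non-accumulator. The members leaned towards lower values in P. gabriellae. Their median log2 difference, P. gabriellae minus P. semperflorens, was -0.16, with 27 members above 0 and 60 below, against a median of 0.09 over the 39387 contigs, and without P. semperflorens plant 3 it was -0.30. On the TMM scale it was -0.26, with 20 above and 67 below, against -0.01. The lean was not present on every day. It was -0.34 between the Rivière Blanche plants of March 10 and -0.30 between the plants of November 4, and 0.07 between those of October 30, where 48 members were higher in P. gabriellae. The medians over the 39387 contigs on those days were 0.12, 0.35 and -0.20. Within Monts Koghi as a whole it was -0.21. The members were chosen on their level in both species, so these differences are bounded by the rule.

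In 12 of the 87 members the 3 plants of each species lay apart, with 3 members higher and 9 lower in P. gabriellae. Over the 53478 contigs tested, 12.1% were higher in P. gabriellae without overlap and 7.42% lower. On the TMM scale none of the members was higher without overlap and 6 were lower, 6.90% of the members, where 9.69% and 10.1% of the 39387 contigs were. Scaled to the members' own reads, 1 was higher and 15 were lower, against 9.98% and 6.33% of those contigs. With 1 plant left out, which makes separation easier, 9 to 29 members were lower in P. gabriellae and 3 to 9 higher. The highest counts came without P. semperflorens plant 3 and without P. gabriellae plant 1, respectively. Shares over all contigs were not computed with a plant left out, so nothing is read from these counts. With edgeR's quasi-likelihood test and Benjamini-Hochberg adjustment, none of the 87 members passed an adjusted p of 0.05, against 0.151% of all contigs tested. At an unadjusted p under 0.05 there were 10 members, against 12.4% of all contigs. DESeq2 called 2 members, both lower in P. gabriellae, against 3.99% of all contigs.

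Among the members whose species did not overlap, the 2 with the largest difference towards P. gabriellae were Pgab_v2_contig_482, at a log2 difference of 1.08 (SE 0.49), and Pgab_v2_contig_144, at 0.57 (SE 0.27), whose levels are given above. In both the lowest P. gabriellae plant lay close to the highest P. semperflorens plant, and on the TMM scale the groups overlapped. In the other direction, Pgab_v2_contig_246 had a log2 difference of -1.40 (SE 0.52). Pgab_v2_contig_4894 was at 529, 1606 and 981 CPM in P. gabriellae plants 1, 2 and 3, against 2387, 2733 and 1803 CPM in P. semperflorens plants 1, 2 and 3, a log2 difference of -1.27 (SE 0.50). Those 2 stayed without overlap on the TMM scale.

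The members called by DESeq2, named after their values were seen, had tighter groups. Pgab_v2_contig_1905 was at 529, 780.0 and 683 CPM in P. gabriellae plants 1, 2 and 3, against 1255, 1525 and 1613 CPM in P. semperflorens plants 1, 2 and 3. Pgab_v2_contig_3302 was at 687, 683 and 929.7 CPM in P. gabriellae plants 1, 2 and 3, against 1772, 1869 and 1338 CPM in P. semperflorens plants 1, 2 and 3. Neither passed edgeR's test, where the smallest adjusted p of any member was 0.234 by the quasi-likelihood test.

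Rivière Blanche leaves, collected in March, were set against Monts Koghi leaves, collected in October and November. The median log2 difference of the members, Rivière Blanche minus Monts Koghi, was 0.25, with 61 of 87 above 0, against -0.09 over the 39387 contigs. On the TMM scale it was 0.39, with 71 above 0, against 0.04. Within P. gabriellae alone the median was 0.16 and within P. semperflorens 0.34, each with 1 Rivière Blanche plant against 2 Monts Koghi plants. Without P. semperflorens plant 2 the median over all plants was 0.08, and without P. gabriellae plant 2 it was 0.40. The members were chosen on their level at both sites, so these differences too are bounded by the rule.

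In 23 members, 26.4%, the Rivière Blanche plant was the highest of its species in both species, and in 6, 6.90%, it was the lowest in both, where 10.9% and 17.7% of the 39387 contigs were. With TMM scaling these were 28 and 1 members, against 16.6% and 13.6% of those contigs. Scaled to the members' own reads they were 12 and 10, against 5.12% and 24.8%, so the counts depend on the scaling. The rule also limits how low a member can be at either site, a limit that the 39387 contigs do not have. In 15 members the Rivière Blanche plant was highest in 1 species and lowest in the other, a share of 17.2%, near the 18.5% of the 39387 contigs. Both Rivière Blanche plants lay above all 4 Monts Koghi plants in 9 members and below all 4 in 4, where 4.9% and 11.4% of all 53478 contigs did so. With TMM scaling 10 lay above and 1 below, against 9.27% and 7.69% of the 39387 contigs. Scaled to the members' own reads 5 lay above and 9 below, against 2.53% and 14.4%, so the balance of the directions turned with the scaling. Leaving out 1 Monts Koghi plant makes separation easier, and 10 to 25 members then lay above and 4 to 5 below. Without a Rivière Blanche plant that site keeps 1 plant, and those counts are not given. Shares over all contigs were not computed with a plant left out, so nothing is read from these counts. By edgeR's quasi-likelihood test with species in the model, 0 of the 87 members and 0% of all contigs passed an adjusted p of 0.05, with 6 members at an unadjusted p under 0.05, against 9.14% of all contigs. DESeq2 called 1 member, against 2.17% of all contigs.

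The member called by DESeq2 was Pgab_v2_contig_681. It was at 1801 and 2433 CPM in the Rivière Blanche plants of P. gabriellae and P. semperflorens, against 621 and 1173 CPM in the Monts Koghi plants of P. gabriellae and 926 and 1040.2 CPM in those of P. semperflorens. Its log2 difference was 1.19 (SE 0.29), and that of Pgab_v2_contig_1604 was 1.60 (SE 0.57). Each SE in this comparison rests on 2 Rivière Blanche and 4 Monts Koghi plants with the species pooled. The 4 members below all Monts Koghi plants at Rivière Blanche included Pgab_v2_contig_40, at a log2 difference of -2.08 (SE 0.92). Pgab_v2_contig_1990 was at 545 and 1019 CPM in the Rivière Blanche plants of P. gabriellae and P. semperflorens, against 1419 and 1315 CPM in the Monts Koghi plants of P. gabriellae and 1264 and 1084 CPM in those of P. semperflorens. Its log2 difference of -0.76 (SE 0.46) was -0.31 without P. gabriellae plant 2 and -1.21 without P. semperflorens plant 2, and on the TMM scale the sites overlapped for this contig but not for Pgab_v2_contig_40.

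Species and site, which are balanced against each other in this design, left a large part of the members' variation unaccounted for. Of the summed squares of log2 CPM about each member's mean, 30.3% lay between the species, 24.1% between the sites and 45.5% in neither, against 29.1%, 24.2% and 46.7% over the 39387 contigs. Such sums weigh the most variable contigs most. The median share per member was 15.1% for species and 18.4% for site, against 19.8% and 13.6% over the 39387 contigs. The contrast of P. gabriellae plant 1 with the other 5 plants alone held 35.0% of the members' squares, and the same contrast for the other plants held 11.1% to 24.1%. Over the 39387 contigs that of P. gabriellae plant 1 held 24.0%. These contrasts of a single plant overlap with those of species and site and with each other. Their shares are therefore not parts of the 45.5% and do not add up.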

How the data were processed

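Whole-number counts of reads on each contig were deposited by the authors for 6 libraries of polyA RNA from leaves of 3 P. gabriellae and 3 P. semperflorens plants. Per the labels' protocols the libraries were stranded. Per the series' design text, both species were counted on the P. gabriellae transcriptome assembled de novo. The aligner, the counter, its use of strand and filters were not stated in the labels.

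Contigs were ranked by count in each library, and those ranked 200 or better in all 6 were kept. The members and lists were chosen with earlier results of these data known. CPM used column totals. Species, and site with species in the model, were compared over all contigs kept by filterByExpr (53478) with edgeR 4.0.16 in R 4.3.3 (quasi-likelihood test, TMM, Benjamini-Hochberg), with DESeq2 1.42.0 and limma-voom (limma 3.58.1) as alternatives. These fits were also run on simulated counts with changes planted between the species, larger than most differences of the members. Nothing about their power for the members is read from that run. SE of a log2 difference comes from the variances of the 2 groups. Between sites it pools the species, unlike the fits, so it takes in differences between the species. Replicates are separate plants, and no pair of libraries matched within sampling noise, with chi-square over its degrees of freedom of at least 124.

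The named contigs are the 6 members with the highest mean CPM, 4 members each of the widest and the narrowest range, the 2 largest differences in each direction between species and between sites among members whose groups did not overlap, the 2 nearest to the rank limit on each side, and the 2 pairs with the steadiest ratio. The lists of photosynthesis, metal chelation and translation genes and of leaf markers were not used because contigs carry no gene names.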

Additional observations from a re-analysis of the deposited data

Results flagged for a closer look

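A single plant stood apart from the other 3 Monts Koghi plants in 4 named members. The flag was the 95% critical value of Dixon's test for 4 samples, in a group that mixes the species. Chance flags about 1 in 20 groups drawn from a single population, and 23 values were looked at. The members were chosen and named on these same counts and the species were pooled, so that rate does not hold here. The flags are therefore descriptions, and nothing is read from them as a test. In Pgab_v2_contig_105 the gap was 0.945 of the group's range, with P. gabriellae plant 1 highest. In Pgab_v2_contig_2529 it was 0.984, in Pgab_v2_contig_1042 0.962 and in Pgab_v2_contig_2732 0.86, each time with P. semperflorens plant 1 highest. The last 3 are the contigs with a nearly fixed ratio to each other, so they are not separate observations.

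The step from Monts Koghi to Rivière Blanche ran in opposite directions in the species for 2 named members. For Pgab_v2_contig_311 the log2 difference, Rivière Blanche minus Monts Koghi, was -1.17 for P. gabriellae plants and 0.35 for P. semperflorens plants. For Pgab_v2_contig_1194 it was -0.21 for P. gabriellae plants and 0.46 for P. semperflorens plants. Each rests on 1 Rivière Blanche plant against 2 Monts Koghi plants per species, and the difference between the species was not tested.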

How the results depend on the processing

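With a rank limit of 50, 100 or 400 the members numbered 14, 36 and 175, by P. semperflorens libraries alone 144, and with 1 library left out 88 to 106. Their average share of reads was 10.4% at a limit of 100, 21.2% at 400, 10.5% without the 10 highest contigs of each library and 15.97% to 17.5% with 1 library left out of the rule. The median log2 range of 1.14 was 1.32 on the TMM scale, 1.05 as a share of the members' own reads and 0.99 to 1.10 with 1 library left out, and the median SD was 0.44. DESeq2 called 2 members between species and 1 between sites. Between species, limma-voom and the other normalizations and filters called 0 members, against 0.0723% to 0.15% of all contigs. The replicate block, the collection-day block and each left-out library called 0 members and 0% of all contigs. Those 0 counts are therefore not a result about the members. Between sites, limma-voom, RLE normalization and the filter of 10 reads in each library called 0 members and 0% of all contigs. The same held with each Monts Koghi library left out, and no block was run. The named differences kept their direction throughout. Replicate numbers name the plants without pairing them, because a common collection day links just those numbered 2, and deviations of same-numbered plants over the 39387 contigs correlated at 0.03, 0.20 and 0.15. With the replicate block edgeR called 0 members and 0% of all contigs. In that fit 12 of the 87 had an unadjusted p under 0.05, near the 11.9% of all contigs. Pattern counts under TMM and under the members' own reads, and the values within days, were chosen after seeing the data. The causes of these shifts were not tested.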
